A study of Mus musculus with 9 samples.

Results

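The 8 genes described here, used as marks of tissue-resident macrophages, were followed in the adipose stromal vascular fraction (SVF), the mixture of stromal, vascular and immune cells left when digested fat is freed of its fat cells. They were Timd4, Mrc1, Cd163, Folr2, Adgre1, Maf, Cbr2 and F13a1. A probe set was taken for a gene when the array's annotation gave it exactly 1 gene symbol and that symbol was the gene's. The 8 genes had 13 such probe sets, of 34945 probe sets and 18193 genes named in this way. Each gene had 1 probe set except Maf, which had 6. The genes were chosen by name and not by a rule on their signals, but with earlier results of the same arrays already known.

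Inguinal fat of wild type Balb/c mice, 10 weeks old, had been operated on by the procedure the study calls priming, in which the fat is minced (injury) and the artery that feeds it is tied off (ischemia); the labels name the injury alone. RNA of the SVF was hybridised to 9 arrays, 1 for each mouse. Day 0, day 1 and day 3 after priming had 3 mice apiece. The study compared both later days with day 0, which it treats as nonprimed, and all mice shared strain, genotype, age and fat depot. Neither sorted macrophages nor mice with sham surgery at days 1 and 3 were among these arrays, so time after surgery and the operation itself cannot be told apart.

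Resident macrophages settle in a tissue, clear dying cells and debris, take up iron and proteins, and in many organs renew themselves with little help from the blood. After an injury they share the tissue with macrophages that develop from blood monocytes. In mouse tissues TIM4, the product of Timd4, marks long-lived resident cells, whereas the surface receptor EMR1, the product of Adgre1, is carried by most mature macrophages whatever their origin. Fat is rich in resident macrophages that carry CD206, CD163, folate receptor beta and TIM4.

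Of the 24106 to 26299 probe sets called present on an array, among 45101 in all, 12 of the 13 probe sets of the 8 genes were present on all 9 arrays. The 3′ to 5′ ratio of the actin probe sets, a sign of RNA quality, lay between 1.15 and 1.32. Of 23 core genes of macrophages (Csf1r, the C1q chains, Cd68 and others), 20 were present on all 9 arrays. Such calls show macrophage RNA in the mixture and not that the signal of the 8 genes came from resident macrophages. Marks of other cells of the SVF were present throughout as well: all 12 blood endothelial genes listed, and all 11 of the listed adipose progenitor genes that the array's annotation named. The arrays measured whole SVF, so fewer cells of a type and less RNA per cell cannot be told apart in any value below.

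Because the transcription factor gene Maf was one of the 8, and PU.1, the factor that macrophages need for their development, is encoded by the listed gene Spi1, the promoters were read for the short motifs of these factors. RefSeq promoter windows on the mouse build GRCm38.p6, from 250 bases before to 50 bases after the start of the transcript, were matched for 6 of the 8 genes: Mrc1, Cd163, Folr2, Timd4, Cbr2 and F13a1. Printed are 4 windows, those of 2 of the genes that rose on both days (Mrc1 and Cbr2), of the gene that fell (Timd4) and of a gene that passed no test (Cd163), with capitals on both motifs. The MAF motif was searched as TGCTGA, which reads as TCAGCA from the other strand. The PU.1 motif was searched as AGGAAG, which reads as CTTCCT from the other strand.
Timd4, chr11:46810549-46810848, plus strand: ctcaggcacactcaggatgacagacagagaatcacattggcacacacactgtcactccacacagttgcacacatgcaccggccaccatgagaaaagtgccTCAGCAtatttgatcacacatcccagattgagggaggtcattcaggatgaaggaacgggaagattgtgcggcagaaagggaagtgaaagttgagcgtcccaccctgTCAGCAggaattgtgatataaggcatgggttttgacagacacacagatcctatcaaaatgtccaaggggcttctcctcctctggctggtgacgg
Mrc1, chr2:14229164-14229463, plus strand: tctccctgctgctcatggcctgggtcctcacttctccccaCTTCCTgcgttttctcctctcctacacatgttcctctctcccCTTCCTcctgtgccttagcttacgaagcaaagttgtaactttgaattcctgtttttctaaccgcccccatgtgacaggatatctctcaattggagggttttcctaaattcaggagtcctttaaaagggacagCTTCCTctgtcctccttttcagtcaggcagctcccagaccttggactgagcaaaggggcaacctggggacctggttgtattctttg
Cbr2, chr11:120731972-120732271, minus strand: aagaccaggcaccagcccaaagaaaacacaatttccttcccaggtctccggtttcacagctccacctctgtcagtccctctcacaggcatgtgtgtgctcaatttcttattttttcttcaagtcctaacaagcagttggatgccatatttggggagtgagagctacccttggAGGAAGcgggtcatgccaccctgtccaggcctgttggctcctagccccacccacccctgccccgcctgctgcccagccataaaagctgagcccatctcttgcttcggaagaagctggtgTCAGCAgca
Cd163, chr6:124304401-124304700, plus strand: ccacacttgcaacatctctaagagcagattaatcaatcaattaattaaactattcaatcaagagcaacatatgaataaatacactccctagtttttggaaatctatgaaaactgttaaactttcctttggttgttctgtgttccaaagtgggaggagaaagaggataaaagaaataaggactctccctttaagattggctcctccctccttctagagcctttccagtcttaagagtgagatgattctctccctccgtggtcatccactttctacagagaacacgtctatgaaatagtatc
The Timd4 window held the MAF motif at 150 and 44 bases upstream of the start and no PU.1 motif. The Mrc1 window held 3 PU.1 motifs, 210, 168 and 36 bases upstream, the Cbr2 window held both motifs, and the Cd163 window held neither. Over the 6 genes, 3 had the MAF motif (Folr2, Timd4 and Cbr2) and 4 the PU.1 motif (Mrc1, Folr2, Cbr2 and F13a1), in either strand of at least 1 window. Counted by window, 4 of the 8 windows of these genes held the MAF motif and 6 the PU.1 motif. Of all 32851 promoter windows of the same length, 19.5% held the MAF motif and 35.4% the PU.1 motif. The 2 motifs can overlap by 1 base, and the MAF motif by 3 bases with the AP-1 motif TGANTCA. A match of 6 letters is a description of the window and does not show a bound site.

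Across the 3 days the 8 genes did not move as 1 group. Adgre1, Cbr2 and Mrc1 were higher than on day 0 on both later days, Maf was higher on day 3, and Timd4 fell on day 3 to less than the level of any mouse of day 0. Cd163, Folr2 and F13a1 passed no test. On day 1, 3 of 8 genes rose and 5 did not pass the test (4 higher and 0 lower at an unadjusted p under 0.05), while 28.6% of the 11796 genes tested were called, 10.7% higher and 17.9% lower. On day 3, 4 rose and 1 fell, where 26.1% of all genes were called, 13.6% higher and 12.5% lower. Called genes are those at an adjusted p under 0.05 (limma on log2 signal, two-sided, Benjamini-Hochberg over all 11796 genes). With a limit of 2-fold in addition, Adgre1 (higher) and Timd4 (lower) remained of the 8 on day 3, where 4.44% of all genes passed as higher and 3.48% as lower, and 0 on day 1, where 3.65% and 3.36% did. The median change of the 8 genes was 0.20 on day 1 and 0.34 on day 3 on the log2 scale, beside -0.13 and -0.03 for all genes. The day 1 median of all genes was -0.01 when each array was centred on its median, and relative to the deposited median of all genes Adgre1, Mrc1 and Cbr2 were 0.85, 0.72 and 0.67 higher on that day.

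**Figure D1:**
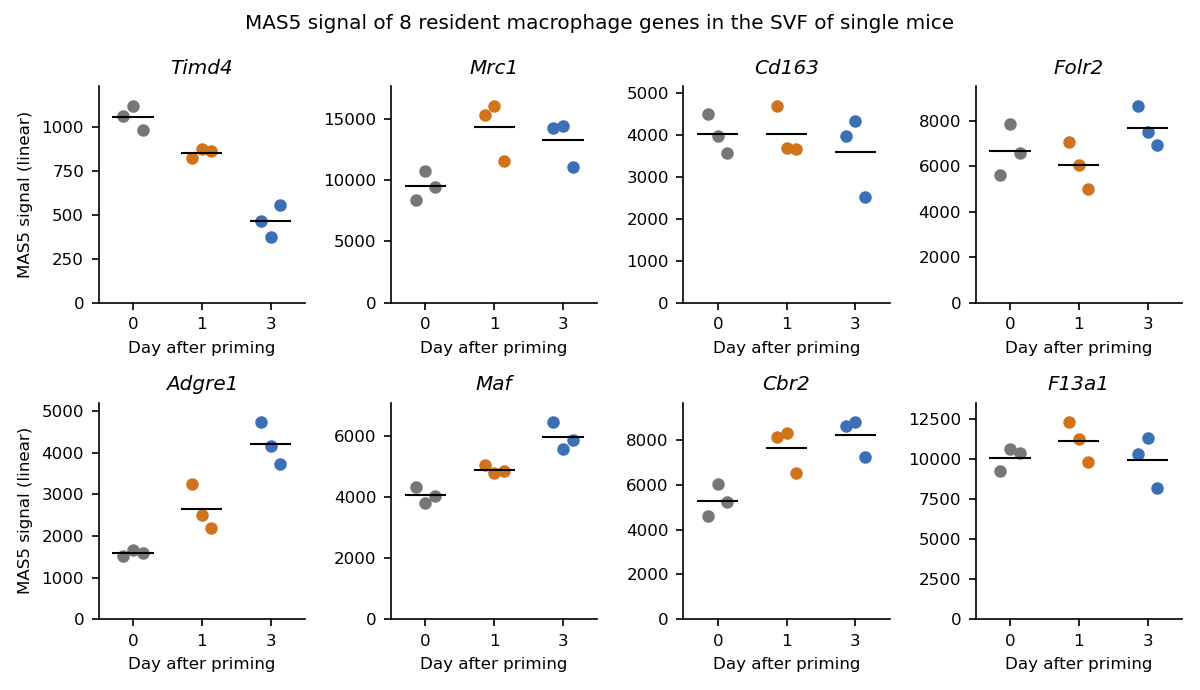
MAS5 signal (linear axis from 0) of the 8 genes against day after priming, 1 point for each mouse and a line at the mean of the day. The 3 day 3 points of Timd4, between 374 and 554, lie below all points of days 0 and 1, and those of Adgre1, between 3730 and 4741, above them.

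Timd4 encodes TIM4, a receptor for phosphatidylserine on dying cells. Its signal was 1061, 1121 and 981 in the 3 mice of day 0, 823, 874 and 863 on day 1, and 465, 374 and 554 on day 3. The 3 days did not overlap, and each later day lay below the one before. The signal averaged 1054 ± 70.0 on day 0, 853 ± 26.6 on day 1 and 464 ± 90.1 on day 3 (SD, n = 3 mice each). Day 3 was 0.435 times day 0 (95% interval 0.348 to 0.544; log2 change -1.20 ± 0.15 SE, adjusted p = 0.000165, limma), and 2.26% of the genes tested had a more negative change. The difference on day 1, -0.30 on the log2 scale, did not pass the test (adjusted p = 0.138, limma). Between the later days Timd4 was 0.90 log2 units lower on day 3 than on day 1 (adjusted p = 0.00259, limma). Both calls held when any 1 array was left out, with the change against day 0 between -1.34 and -1.05.

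Mrc1, Cd163 and Folr2 encode the other surface receptors. Mrc1 encodes the mannose receptor CD206, which takes up glycoproteins and collagen fragments. Its signal was 8338, 10762 and 9382 on day 0, 15314, 16051 and 11529 on day 1, and 14261, 14377 and 11051 on day 3. All 6 mice of the later days lay above all 3 of day 0, while days 1 and 3 overlapped. Mrc1 rose by 0.58 ± 0.15 log2 units (SE) on day 1 (95% interval of the fold 1.19 to 1.88, adjusted p = 0.0154, limma) and 1.39-fold on day 3 (1.11 to 1.75; log2 change 0.48 ± 0.15 SE, adjusted p = 0.0369, limma). The day 1 call was lost without day 0 replicate 1, day 0 replicate 3, day 1 replicate 1 or day 1 replicate 2 (adjusted p between 0.0524 and 0.0598). The day 3 call was lost without day 0 replicate 1, day 0 replicate 3, day 3 replicate 1 or day 3 replicate 2 (0.0934 to 0.134), and with median centring, no filter on presence or no variance trend (0.0518 to 0.0725).

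Cd163 encodes the receptor that clears haemoglobin bound to haptoglobin. Its signal was 4508, 3970 and 3567 on day 0, 4695, 3688 and 3660 on day 1, and 3961, 4319 and 2508 on day 3. The days overlapped, and the lowest value of all was that of day 3 replicate 3. The log2 change was -0.00 ± 0.19 (SE) on day 1 and -0.19 ± 0.19 on day 3 (adjusted p = 0.991 and 0.494, limma). The 95% interval of the day 3 change ran between -0.61 and 0.22, which is 0.657 to 1.17 times day 0, and the day 3 estimate was 0.05 without day 3 replicate 3.

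Folr2 encodes folate receptor beta. Its signal was 5609, 7881 and 6589 on day 0, 7076, 6054 and 5009 on day 1, and 8677, 7503 and 6941 on day 3. These values overlapped on all days. The log2 change was -0.15 on day 1 (95% interval -0.48 to 0.19) and 0.21 on day 3 (-0.13 to 0.55), with adjusted p of 0.490 and 0.340 in limma. Day 3 exceeded day 1 by 0.36 log2 units (adjusted p = 0.138), which passed the test only with quantile normalization (0.48, adjusted p = 0.0377).

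Adgre1 encodes EMR1, an adhesion G protein-coupled receptor that serves as the usual surface mark of mouse macrophages. Its signal was 1523, 1661 and 1596 on day 0, 3242, 2503 and 2187 on day 1, and 4741, 4177 and 3730 on day 3. The 3 days did not overlap and stood in the order of time. Adgre1 averaged 1593 ± 69.0 on day 0, 2644 ± 541 on day 1 and 4216 ± 506 on day 3 (SD, n = 3 mice each). It rose 1.64-fold on day 1 (95% interval 1.31 to 2.05; adjusted p = 0.00542, limma) and 2.64-fold on day 3 (2.11 to 3.30; adjusted p = 5.83e-05, limma), a change that exceeded that of 97.3% of the genes tested. Day 3 also exceeded day 1 by 0.69 log2 units (adjusted p = 0.0111, limma), a call that was lost without day 3 replicate 1 (0.60, adjusted p = 0.063).

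Maf encodes c-MAF, a transcription factor of the large MAF group that is active in resident macrophages. The brightest of its probe sets gave 4347, 3812 and 4046 on day 0, 5045, 4789 and 4869 on day 1, and 6463, 5581 and 5873 on day 3. The 3 days did not overlap and stood in the order of time. Maf rose 1.47-fold on day 3 (95% interval 1.26 to 1.70; log2 change 0.55 ± 0.10 SE, adjusted p = 0.00193, limma). The day 1 difference of 0.27 missed the threshold (adjusted p = 0.0581) and passed it with median centring (0.39, adjusted p = 0.0159).

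The other 5 probe sets of Maf did not all follow the brightest one. Tested each on its own among 21283 probe sets, 3 of the 6 rose on day 3 (1456060_at, 1437473_at and 1435828_at), where 10.8% of all probe sets were called higher and 11.4% lower, and 3 did not pass the test. The log2 change on day 3 was 0.63 for 1437473_at and 0.46 for 1435828_at (adjusted p = 0.0142 and 0.0321, limma). The probe set 1447849_s_at changed by 0.36 (adjusted p = 0.101). The 2 dimmest gave 0.11 (1447945_at, adjusted p = 0.722, present on 7 of 9 arrays) and -0.49 (1444073_at, adjusted p = 0.239). The signal of 1437473_at was 703, 559 and 674 on day 0, 699, 603 and 821 on day 1, and 1040, 1093 and 862 on day 3, so that days 0 and 1 overlapped and day 3 lay above both. On day 1 limma called 0 of the 6, with 1 higher and 1 lower at an unadjusted p under 0.05, where 9.02% of all probe sets were called higher and 16.1% lower. On day 3 against day 1, 2 of the 6 rose (1435828_at by 0.63 and 1447849_s_at by 0.52), where 7.19% were called higher and 3.74% lower. The plot of the Maf probe sets shows the 4 brightest to the right of 0 on day 3. With the mean of all 6 in place of the brightest, the day 3 change was 0.27 and the call was lost (adjusted p = 0.157).

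**Figure D2:**
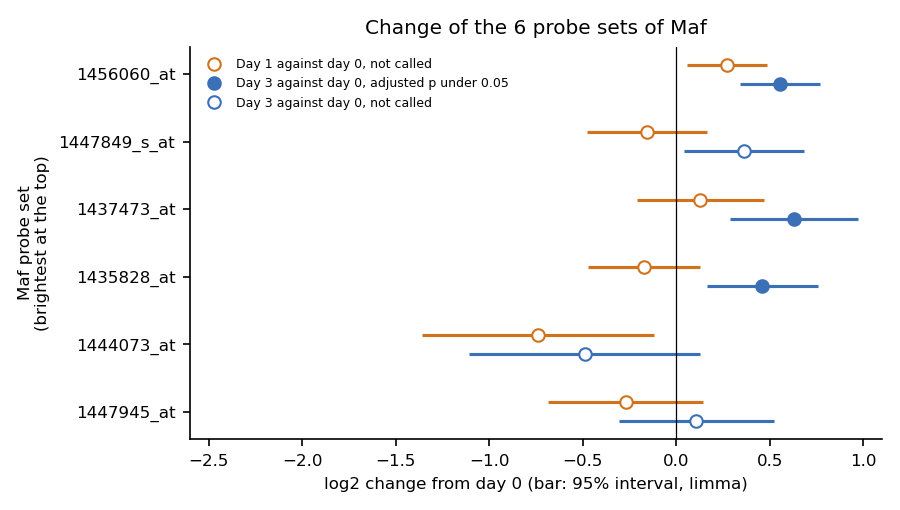
log2 change from day 0 of the 6 Maf probe sets on days 1 and 3, with 95% intervals from limma, ordered by mean signal with the brightest at the top. Filled points passed an adjusted p under 0.05: 3 of 6 on day 3.

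Cbr2 encodes a mitochondrial carbonyl reductase that macrophages of several mouse tissues express. Its signal was 4608, 6025 and 5225 on day 0, 8146, 8310 and 6519 on day 1, and 8624, 8801 and 7253 on day 3. Every mouse of the later days lay above every mouse of day 0, and days 1 and 3 overlapped. Cbr2 rose 1.45-fold on day 1 (95% interval 1.18 to 1.77; adjusted p = 0.0133, limma) and 1.56-fold on day 3 (1.27 to 1.91; adjusted p = 0.00496, limma). The day 1 call was lost without day 0 replicate 1 (adjusted p = 0.0535).

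F13a1 encodes the A subunit of coagulation factor XIII, a transglutaminase that cross-links fibrin and is made by macrophages, monocytes and megakaryocytes. Its signal was 9276, 10628 and 10405 on day 0, 12319, 11297 and 9813 on day 1, and 10332, 11337 and 8171 on day 3. These values overlapped on all days. The log2 change was 0.14 on day 1 (95% interval -0.15 to 0.42) and -0.03 on day 3 (-0.32 to 0.25), with adjusted p of 0.443 and 0.874 in limma.

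**Figure D3:**
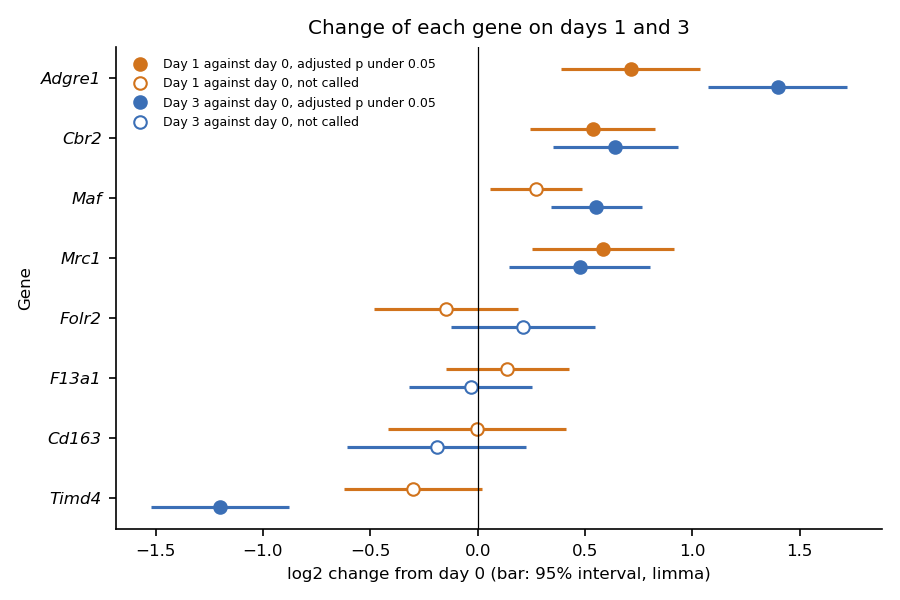
log2 change from day 0 of the 8 genes on day 1 and day 3, with 95% intervals from limma, ordered by the day 3 change. Filled points passed an adjusted p under 0.05, and Timd4 (-1.20) and Adgre1 (1.40) stand at the ends on day 3.

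On day 3 against day 1, 1 of the 8 genes rose (Adgre1) and 1 fell (Timd4), where 14.2% of all genes were called, 9.66% higher and 4.54% lower. Neither reached 2-fold there, as 2.08% of all genes did upward and 1.6% downward. The plot of the changes shows these 2 genes at opposite ends, and the intervals of Cd163, Folr2 and F13a1 crossing 0 on both days. By overlap alone, the mice of day 1 and day 0 were fully apart for 5 of the 8 genes (4 higher, 1 lower) where 40% of all genes were (13.8% higher, 26.1% lower), those of day 3 and day 0 for 5 (4 higher, 1 lower) where 47.2% were (22.6% higher, 24.6% lower), and those of day 3 and day 1 for 3 (2 higher, 1 lower) where 35% were (23.4% higher, 11.5% lower).

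Since the product of Adgre1 is carried by most macrophages, each of the other 7 genes was also set against Adgre1 on the same array, with the mean of day 0 as the base. On day 3 the ratios of all 7 lay below that base on each of the 3 arrays. A lower mean ratio was settled by the choice, since Adgre1 had the largest day 3 change of the 8 genes. Cbr2, Maf and Mrc1 stood at 59.2%, 55.7% and 52.8% of their day 0 ratio to Adgre1. Folr2 stood at 43.9%, F13a1 at 37.1%, Cd163 at 33.2% and Timd4 at 16.5%. On day 1 the ratios ranged between 49.5% for Timd4 and 91.5% for Mrc1, and 1 array of day 1 lay above the day 0 mean for Mrc1 and for Cbr2. These ratios share the Adgre1 signal of each array and were not tested. They show unequal change and not which of the 2 genes changed. Their size also depends on the choice of Adgre1, which rose by 1.40 log2 units on day 3. Csf1r and C1qa, of the core macrophage genes, changed by 0.13 and 0.17, less than Mrc1 (0.48), Maf (0.55) and Cbr2 (0.64). Of the 22 core macrophage genes tested, however, 13 rose on day 3, with a median change of 0.90. Ratios to genes other than Adgre1 were not taken.

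**Figure D4:**
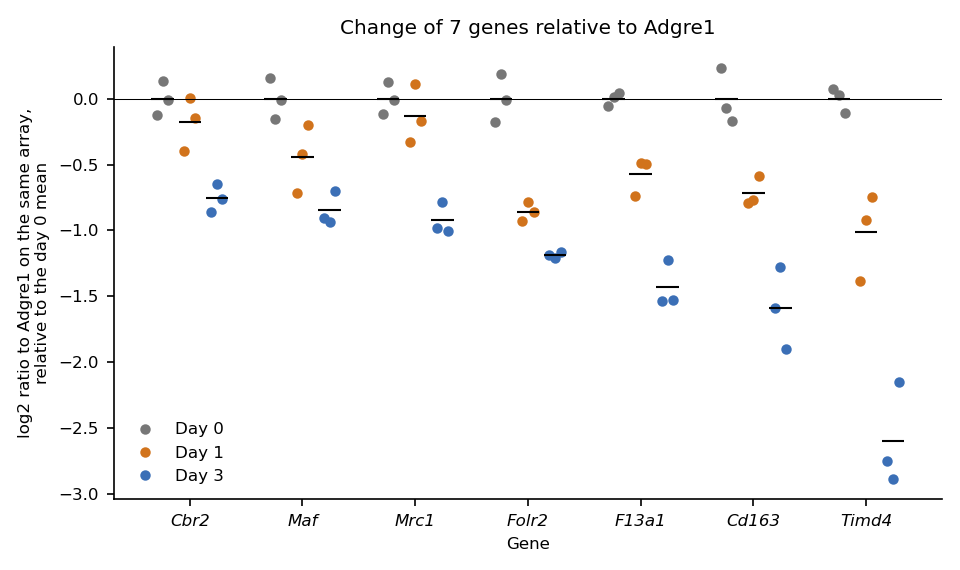
log2 ratio of 7 genes to Adgre1 on the same array, less the mean of day 0, with 1 point for each mouse and a line at the mean of each day. All day 3 points lie below 0, with Timd4 between -2.88 and -2.15 and Cbr2 between -0.86 and -0.65.

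Within a day, mice differed together in several of these genes. Day 1 replicate 3 was the lowest mouse of its day for 6 of the 8 genes (Mrc1, Cd163, Folr2, Cbr2, F13a1 and Adgre1), and day 3 replicate 3 was the lowest of its day for the same 6. Day 3 replicate 3 was also the highest of its day for Timd4. After the day means were taken out, the log2 signals of Mrc1 and Cbr2 had a Pearson correlation of 0.99 over the 9 arrays, those of Mrc1 and F13a1 of 0.88, and those of Mrc1 and Folr2 of 0.84. Maf was little related to Adgre1 in this way (0.30), although over all 9 arrays, day differences included, the 2 genes had a correlation of 0.94. All these points share the scaling of their array and the days, and they stand here as a description.

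Over all 9 arrays the genes whose log2 signal followed each of the 8 most closely differed from gene to gene. For Adgre1 they were Osbpl8, Ssr1 and Fam20c (Pearson r between 0.988 and 0.993), for Maf Dna2, Pgap6 and Slc37a2 (0.977 to 0.983), and for Timd4 Lsm14a, Herpud1 and Cxcr6 (0.967 to 0.981). Cxcr6, a chemokine receptor gene of lymphocytes, had a log2 difference of -2.02 on day 3 against day 0. For Cbr2 they were Mtmr10, Otub1 and Trappc1, and for Mrc1 Tspan4, Rab11a and Atp6v1g1. For Folr2 they were Wls, Cyp4v3 and Hfe, for F13a1 Hal, Csnk1a1 and Psmd13, and for Cd163 Ascl3, Bmper and 3930402G23Rik. The 9 arrays share 3 days and the scaling of each array, and no test was made.

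Among 25 other genes known from resident macrophages, as many rose as fell on day 3, and most were called in 1 direction or the other. There 9 rose and 9 fell, where 13.6% of all genes rose and 12.5% fell, with a median change of -0.16 (all genes -0.03). On day 1, 6 rose and 4 fell, where 10.7% of all genes rose and 17.9% fell, with a median of 0.02 (all genes -0.13). Without day 0 replicate 1 or without day 1 replicate 2 the falls on day 1 numbered 2. The 4 with the largest changes were Cd5l, Mgl2, Cd209b and Cd209d. Cd5l, which encodes a secreted scavenger protein that macrophages make and that supports their survival, rose by 1.89 log2 units on day 1 and 3.94 on day 3 (adjusted p = 0.00103 and 5.27e-06, limma). Mgl2, a C-type lectin gene of macrophages and dendritic cells, fell by 0.90 on day 1 and by 2.06 on day 3 (adjusted p = 0.00171 and 4.92e-06, limma). Cd209b and Cd209d, of the SIGN family of C-type lectins, fell by 1.79 and 1.55 on day 3 (adjusted p = 4.46e-05 and 0.000251, limma), and their day 1 differences of -0.37 and -0.31 passed no test.

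Several more of these genes are named here although they were chosen after their values were seen. On day 3, when Timd4 fell, Cd209f (-1.11), Cd209g (-1.38), Ccl24 (-1.25), Fcna (-1.10) and Lyve1 (-0.71) were also lower than on day 0, each past the test. Of these, Lyve1, the hyaluronan receptor gene of perivascular macrophages and lymphatic vessels, had a day 1 difference of 0.15 that passed no test (adjusted p = 0.412, limma). Higher on day 3 were Slc40a1, the iron exporter ferroportin (1.46), Stab1, a scavenger receptor (1.22), Pf4 (1.20) and Ccl8 (1.19). Dab2 (1.09), Vsig4 (0.60, adjusted p = 0.0471, limma), Ninj1 (0.51) and Ednrb (0.41) were called higher as well, and Fxyd2 (-0.95) lower. Pf4 and Ccl8, both chemokine genes, had risen by day 1 already (1.26 and 1.43), whereas Slc40a1 and Stab1 had day 1 differences of 0.13 and -0.07 that passed no test. Siglec1, the sialoadhesin gene, differed by 0.08 on both days without passing the test, at a low signal (day means of 52.3, 53.2 and 54.2). It was called present on 2, 1 and 3 of the 3 arrays of days 0, 1 and 3, so little can be read from it. The plot of all 33 genes places Timd4 among the SIGN lectins and Adgre1 beside Slc40a1 and Stab1.

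**Figure D5:**
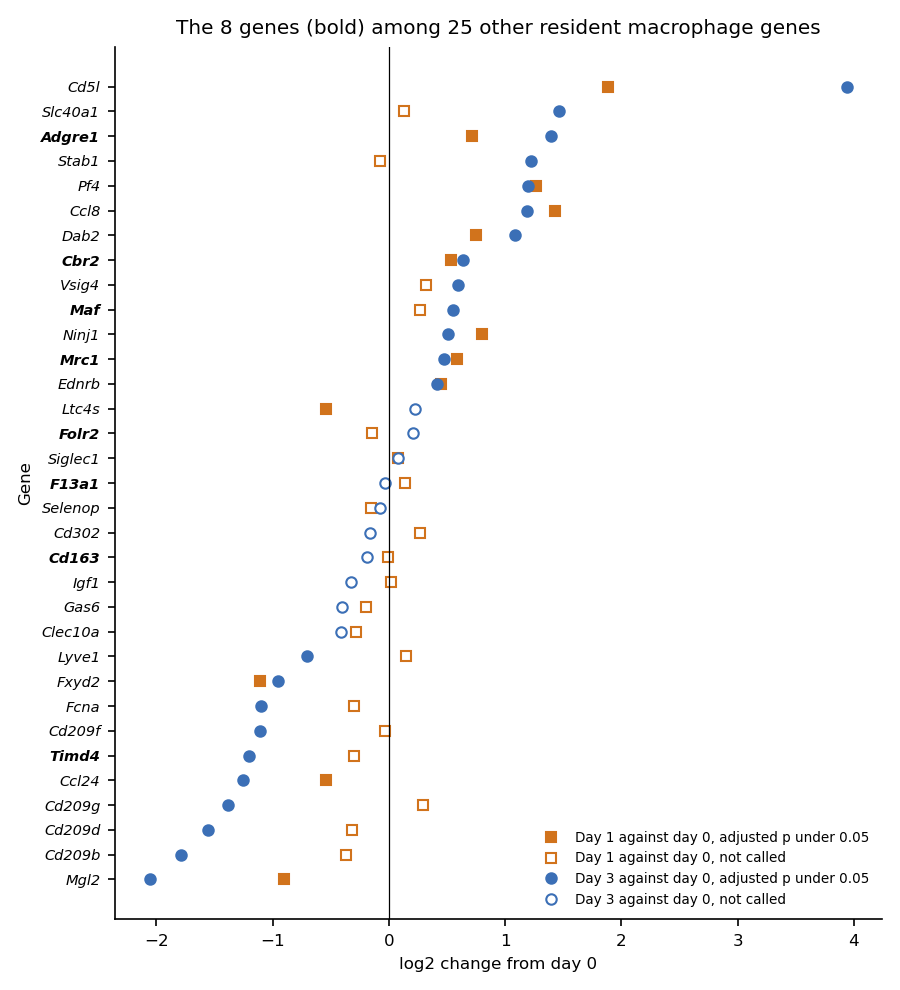
log2 change from day 0 on day 1 (squares) and day 3 (circles) of the 8 genes (bold) and 25 other resident macrophage genes, ordered by the day 3 change. Filled symbols passed an adjusted p under 0.05, and the list runs between -2.06 for Mgl2 and 3.94 for Cd5l on day 3.

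Of 22 core macrophage genes tested, 11 rose and 2 fell on day 1 and 13 rose on day 3, with medians of 0.49 and 0.90 (all genes -0.13 and -0.03). The shares over all genes were 10.7% higher and 17.9% lower on day 1, and 13.6% and 12.5% on day 3. Fcgr1, the high-affinity IgG receptor, rose by 3.91 log2 units on day 1 and 3.23 on day 3, and Itgam, the integrin CD11b, by 2.48 and 1.89. Aif1, which encodes the calcium-binding protein IBA1, rose by 2.27 and 1.66 over the same days. The lipid receptor gene Trem2 rose on day 3 by 2.73 (adjusted p = 0.000369, limma) and differed by 0.47 on day 1 (adjusted p = 0.359), a difference that passed the test only without day 0 replicate 2 (0.93, adjusted p = 0.0429). The Trem2 probe set was called present on 1 of 3 arrays on day 0, 1 on day 1 and 3 on day 3 (day means of 218, 286 and 1300). Its changes therefore start from a signal that was hardly detected. Csf1r, the receptor on which macrophages depend for survival, fell by 0.47 on day 1 (adjusted p = 0.00885) and differed by 0.13 on day 3 (adjusted p = 0.406). C1qa, a complement gene that tissue macrophages express at a high level, differed by 0.01 on day 1 and 0.17 on day 3 and passed no test. Its partner chains C1qb (0.33 and 0.26) and C1qc (0.14 and 0.33) passed none either. The part of other cells, such as monocytes and neutrophils, in the rises of this list was not tested.

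Among the 16 transcription factor genes of macrophages tested beside Maf, 6 rose and 2 fell on day 1, and 6 rose and 4 fell on day 3 (medians of 0.22 and 0.21). Over all genes 10.7% rose and 17.9% fell on day 1, and 13.6% rose and 12.5% fell on day 3. On day 1 the rises numbered 3 without day 0 replicate 1, day 0 replicate 3 or day 1 replicate 1, and the falls 1 without day 0 replicate 1 or day 0 replicate 3, and on day 3 the falls numbered 2 without day 3 replicate 2. Spi1, which encodes PU.1, rose by 1.09 on day 1 and 1.25 on day 3 (adjusted p = 0.000602 and 0.000204, limma). Tfec, of the MiT family, rose by 2.61 and 2.33, and Zeb2, a zinc-finger repressor, by 1.11 and 0.77 on days 1 and 3. Klf2, a zinc-finger factor of the Kruppel-like family, fell by 1.20 on day 1 and by 1.04 on day 3 (adjusted p = 0.0153 and 0.0287, limma). Its day 1 call was lost without day 0 replicate 3 (adjusted p = 0.0551), and its day 3 call without any 1 array of day 0, without day 3 replicate 1 or day 3 replicate 2 (0.0551 to 0.101), and with no variance trend (0.0535).

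Of 19 relatives and partners of the 8 genes tested, 5 rose and 5 fell on day 1 and 5 rose and 2 fell on day 3 (medians of 0.06 and 0.16). Beside these, 10.7% of all genes rose and 17.9% fell on day 1, and 13.6% rose and 12.5% fell on day 3. Leaving out single arrays took the falls on day 1 to 3 (without day 0 replicate 1 or day 1 replicate 2) or 2 (without day 0 replicate 3 or day 1 replicate 1). On day 3 it took the rises to 3 (without day 0 replicate 1 or day 3 replicate 2), and the falls to 1 (without day 0 replicate 3, day 3 replicate 1 or day 3 replicate 2) or 4 (without day 1 replicate 1). Hp, which encodes the haptoglobin that delivers haemoglobin to CD163, rose by 4.66 log2 units on day 1 and 3.46 on day 3 (adjusted p = 7.79e-06 and 7.1e-05, limma), on the days when Cd163 itself passed no test. Havcr2, which encodes TIM3 of the same receptor family as TIM4, rose by 1.07 and 1.34 on days 1 and 3. Cd6, a scavenger-type receptor gene of T cells, fell by 1.69 on day 1 and by 1.31 on day 3 (adjusted p = 0.00591 and 0.0192, limma), and its day 3 call was lost without day 0 replicate 1, day 0 replicate 3, day 3 replicate 1 or day 3 replicate 2 (0.0507 to 0.0703). Mrc2, the collagen receptor related to the mannose receptor, fell by 0.66 on day 1 (adjusted p = 0.00522), when Mrc1 rose, and differed by 0.16 on day 3 (adjusted p = 0.417). Mafk, a small MAF factor without an activation domain, fell by 0.65 on day 3 (adjusted p = 0.000861), when Maf rose.

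Markers of other cells, some of which can carry some of these genes, moved over the same days. Sums of signal are given for days 0, 1 and 3 as the range over the 3 mice, and medians are of the log2 change on days 1 and 3. The counts stand beside 10.7% of all genes higher and 17.9% lower on day 1, and 13.6% and 12.5% on day 3. Of 14 monocyte genes, 12 rose and 1 fell on day 1 and 11 rose on day 3 (medians of 2.12 and 1.29), with sums of 39908 to 44735, 99044 to 136136 and 79269 to 86999. Of 12 neutrophil genes, 11 rose on day 1 and 10 on day 3 (medians of 4.56 and 3.03), with sums of 2228 to 2346, 49597 to 89239 and 11223 to 24405. Platelet genes, which bear on F13a1 and Pf4, had 3 tested of 8 named (medians of 0.21 and 0.19), and Gp6 and Treml1 were absent on all arrays. Their sums of 388 to 515, 5936 to 10056 and 2721 to 3786 lay mostly with Ppbp on days 1 and 3, the 1 gene that rose (day means of 45.1, 7298 and 2980). All 11 cell division genes rose on day 3, with a median of 1.71 and sums of 2816 to 4045, 3091 to 3271 and 10846 to 11495.

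Falls outnumbered rises among the endothelial and dendritic cell genes listed. On day 1 that also held over all genes (17.9% lower, 10.7% higher), and on day 3 it did not (12.5% and 13.6%). Of 9 lymphatic endothelial genes, which bear on Mrc1, Stab1 and Lyve1, 1 rose and 4 fell on day 1 and 2 rose and 3 fell on day 3 (medians of -0.68 and -0.59). Their sums of 8742 to 11654, 15056 to 20143 and 10710 to 12930 went the other way, carried by Pdpn (day means of 2366, 8986 and 6041), a gene that stromal cells and macrophages can also express. The mean over the 9 genes of the log2 level relative to day 0 was -0.30 to -0.25 on day 1 and -0.35 to -0.24 on day 3. The day 1 falls numbered 2 without day 0 replicate 3 or day 1 replicate 1, the day 1 rises 2 without day 0 replicate 2 or day 1 replicate 3, and the day 3 rises 1 without day 0 replicate 1, day 0 replicate 2 or any 1 array of day 3. Of 12 blood endothelial genes, 8 fell on day 1 and 4 on day 3 (medians of -0.63 and -0.19), with sums of 26274 to 35638, 19955 to 22679 and 22687 to 26923. Of 10 dendritic cell genes, which bear on Mgl2 and Mrc1, 4 fell on day 1, and 4 fell and 1 rose on day 3 (medians of -0.51 and -0.65), with sums of 72629 to 78753, 39946 to 57975 and 36851 to 49817, and Xcr1 was absent on all arrays. Without any 1 array of day 0 the falls on day 1 numbered 2, and without day 0 replicate 2 or day 3 replicate 1 the rise on day 3 was lost.

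Several lymphocyte genes fell on day 3, as Timd4 and 12.5% of all genes did. Of 7 B cell genes, 3 fell on day 1 and 5 on day 3 (medians of -1.02 and -1.27), with sums of 13921 to 22076, 5862 to 13418 and 4323 to 8698. The day 1 falls numbered 0 without day 0 replicate 1, day 1 replicate 1 or day 1 replicate 2, 1 without day 0 replicate 3 or day 3 replicate 1, and 7 without day 1 replicate 3. Those of day 3 numbered 2 without day 0 replicate 1 or day 3 replicate 2, and 3 without day 3 replicate 1. Of 6 T cell genes, 4 fell on each later day (medians of -1.23 and -1.47), with sums of 20238 to 24184, 7057 to 17232 and 8375 to 12643, and Cd4 was absent on all arrays. They numbered 2 on day 1 without day 0 replicate 2, and 2 on day 3 without day 3 replicate 2. Of 8 mast cell genes, 2 rose on day 1 and 5 fell on day 3 (medians of -0.04 and -0.70), with sums of 8063 to 9146, 9383 to 12390 and 5304 to 6588, and the falls numbered 3 without day 0 replicate 1, day 0 replicate 2 or day 3 replicate 1. Of 11 adipose progenitor genes, 2 fell on day 1 (1 without day 0 replicate 1 or day 0 replicate 3), near the 17.9% of all genes. On day 3, 4 fell and 1 rose. The medians of these 11 genes were -0.24 and -0.31, with sums of 135568 to 146078, 110634 to 129769 and 117234 to 123933. Of 2 eosinophil genes tested (medians of 0.58 and 0.37, with Prg2, Prg3 and Epx absent on all arrays), Siglecf rose on day 1, a call lost without day 0 replicate 1, day 0 replicate 3, day 1 replicate 1 or day 1 replicate 2. The part of these cells in the values of the 8 genes was not tested.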

How the data were processed

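Total RNA of 9 mice was labelled and hybridised to Affymetrix Mouse430_2 arrays. The authors deposited MAS5 signals (linear intensity, each array scaled to a trimmed mean of 500) with a detection p-value and call per probe set; the deposited value table differed by at most 0.0005 percent. No version of MAS5 is given in the sources used here.

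Of 45101 probe sets, 64 controls, 932 with several symbols and 9160 with none were left out. Kept were probe sets called present in all 3 mice of 1 or more days, and the one with the highest mean log2 signal stood for its gene (11796 genes). Days were compared in 1 fit of all 9 arrays on log2 signal with limma 3.58.1 (R 4.3.3, variance trend), with no replicate block; it was checked on simulated data. The study's methods name a repeated-measurements analysis with a 2-fold limit, which 1 array a mouse does not allow. An ordinary analysis of variance over the 3 days took its place as an alternative, called the methods' filter below. It asked for an unadjusted p under 0.05 for any difference among the days, and a 2-fold change in the comparison. The number of arrays limits the precision. The mice were biological replicates per the labels.

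The 8 genes, the gene lists and the tests were chosen with earlier results of these data known. The rule for named genes took from each list up to 4 called genes with the largest changes and up to 2 others, and any relative of the 8; further resident macrophage genes were named after their values were seen, and of the lists of other cells few genes are named. The correlations name 3 genes for each of the 8.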

Additional observations from a re-analysis of the deposited data

Results flagged for a closer look

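For 2 of the 8 genes the change from day 0 on day 3 differed from that on day 1, by the test of the difference itself (limma, adjusted over all genes). For Timd4 the change on day 3 less that on day 1 was -0.90 on the log2 scale (adjusted p = 0.00259), and all 3 mice of day 3 were lower than all 3 of day 1. For Adgre1 it was 0.69 (adjusted p = 0.0111), and all 3 mice of day 3 were higher than all 3 of day 1. Both comparisons use the same mice of day 0, which drop out of the difference.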

How the results depend on the processing

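The alternatives were other scalings, offsets, filters, probe set choices, variance settings, the methods' filter, a 2-fold limit, the replicate block and leaving out each array. With the 2-fold limit or the methods' filter, 0 of the 8 genes rose on day 1, 1 (Adgre1) on day 3 and 0 on day 3 against day 1, where the fall of Timd4 was also lost (0). On day 3 against day 1, 3 rose with quantile normalization, 2 with array weights and 0 without probe sets that can share transcripts, which leaves out Adgre1 and Folr2. Leaving out 1 array gave 1 to 3 rises on day 1, 3 to 4 on day 3 and 0 to 1 on day 3 against day 1, with the fall of Timd4 kept. Changes near 0 turned sign. The Cd163 change on day 1 was 0.12 with median centring and 0.057 with array weights, and ran between -0.12 and 0.083 without single arrays. Its day 3 change ran between -0.34 and 0.050 against day 0, and between -0.34 and 0.053 against day 1. The F13a1 change on day 3 ran between -0.13 and 0.10. On day 3 against day 1, Mrc1 was 0.0083 with quantile normalization and -0.26 to 0.017 without single arrays, and Cbr2 was -0.018 with median centring and -0.0056 to 0.19 without single arrays. Maf on day 1 was -0.16 with the mean of its probe sets. The cause was not tested.

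Over all genes, 1268 were higher and 2110 lower on day 1, 1600 and 1474 on day 3, and 1140 and 536 on day 3 against day 1. Without single arrays the counts in that order ran between 806 and 1685, 1000 and 2863, 1058 and 1807, 831 and 1811, 474 and 1823, and 253 and 1000. Under the other alternatives they ran between 424 and 1919, 328 and 3436, 522 and 2307, 338 and 2430, 245 and 1718, and 189 and 896. Deviations from the day means correlated between -0.15 and 0.33 for same-numbered mice, and between -0.40 and 0.31 for differently numbered mice. These correlations gave no sign of pairing by number, but they cannot exclude a batch shared by number. The replicate block left the 8 genes at 3 rises on day 1, 4 rises and 1 fall on day 3, and 1 rise and 1 fall on day 3 against day 1.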
